A study of Rattus norvegicus with 12 samples.

Results

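The complement components described here are 10 rat genes: C1qa, C1qb and C1qc, which encode the 3 chains of C1q; C1r and C1s, which encode the proteases that C1q carries; and C2, C3, C4a, C4b and Cfb. They were chosen by name, and their probes were found through the RefSeq accession that the array lists for each probe. Of the 10, 9 had a probe and all 9 were tested, among 15154 gene symbols on the array and 20425 features tested. C4b had no probe matched by accession, and because C4a and C4b are near-identical copies, the C4a probe cannot be assumed to separate them.

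Total RNA from the bladder body of 12 male Fischer 344 rats was measured, with 1 animal on each 1-colour Agilent array. Old restricted rats (n = 4) were 25 to 28 months old and had been fed on 3 days a week since they were 6 weeks old, an intake roughly 40% below that of freely fed old rats. Old freely fed rats (n = 4) had the same range of ages, and young freely fed rats (n = 4) were 6 months old. The title of the series asks about inflammatory and oxidative change with age in the bladder and about its prevention by restriction.

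Complement is a cascade of plasma and tissue proteins that marks microbes and damaged cells for removal. In the classical pathway C1q binds its target, C1r and C1s are activated, and C1s cleaves C4 and C2 to form an enzyme that cleaves C3. In the alternative pathway factor B, encoded by Cfb, takes the place of C2, and both routes meet at C3. The liver makes most circulating complement, while macrophages make C1q, and epithelial and stromal cells can also make C3, factor B and C4 locally.

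Several of the genes lie side by side in the rat genome. C1qb, C1qc and C1qa are consecutive protein-coding genes on chromosome 5, C1r and C1s are neighbours on chromosome 4, and C2 and Cfb are neighbours on chromosome 20, where C4a and C4b also lie. C3 lies alone on chromosome 9. RefSeq promoter sequences (GRCr8, from 250 bases before to 50 after the start of the gene) were matched for 6 of the 10 genes, and 4 are shown. C3 is shown because it had the largest difference between old and young animals, C1r because its old and young groups did not overlap, and C4a and C4b because they show how alike the copies are. Capitals mark matches to the C/EBP motif TTGCNNAA on either strand.
C3 promoter, chr9:2201290-2201589, minus strand: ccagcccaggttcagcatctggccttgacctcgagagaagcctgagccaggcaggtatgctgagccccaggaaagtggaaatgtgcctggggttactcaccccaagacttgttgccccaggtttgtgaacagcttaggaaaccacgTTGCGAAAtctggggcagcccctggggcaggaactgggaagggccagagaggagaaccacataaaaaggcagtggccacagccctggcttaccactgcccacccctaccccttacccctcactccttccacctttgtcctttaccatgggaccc
C1r promoter, chr4:159098763-159099062, plus strand: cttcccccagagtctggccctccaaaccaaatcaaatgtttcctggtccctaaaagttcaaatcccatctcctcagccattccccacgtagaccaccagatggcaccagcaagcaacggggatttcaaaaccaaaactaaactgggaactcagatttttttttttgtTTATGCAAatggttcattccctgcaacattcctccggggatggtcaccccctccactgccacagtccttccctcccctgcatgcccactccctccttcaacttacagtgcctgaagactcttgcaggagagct
C4a promoter, chr20:4010107-4010406, plus strand: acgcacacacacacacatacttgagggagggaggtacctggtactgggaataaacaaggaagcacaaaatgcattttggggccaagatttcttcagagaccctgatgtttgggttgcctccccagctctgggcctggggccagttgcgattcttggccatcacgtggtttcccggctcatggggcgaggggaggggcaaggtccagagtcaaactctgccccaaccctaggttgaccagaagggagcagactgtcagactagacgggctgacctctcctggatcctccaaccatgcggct
C4b promoter, chr20:4201729-4202028, plus strand: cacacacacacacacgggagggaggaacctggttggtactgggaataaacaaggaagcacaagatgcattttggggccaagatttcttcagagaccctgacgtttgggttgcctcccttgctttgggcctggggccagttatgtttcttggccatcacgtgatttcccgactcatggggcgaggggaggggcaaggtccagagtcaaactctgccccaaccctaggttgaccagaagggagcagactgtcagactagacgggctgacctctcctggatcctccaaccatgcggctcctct
The C3 match lay 104 to 97 bases before the start on the strand of the gene, and the C1r match lay 83 to 76 bases before the start on the opposite strand. That motif was present in 2 of the 6 promoters, against 10.6% of all 33469 rat promoters in the table. The interferon-gamma-activated site TTCNNNGAA was found in 1 of 6, in C1qa at 90 to 82 bases before the start, and in 8.87% of all promoters. The interferon-stimulated core GAAANNGAAA was in 0 of 6 and in 3.92% of all promoters, and the NF-kappaB motif was in 0 of 6 and in 4.18%. A match is a description of letters only. The C4a and C4b promoters were identical at 280 of 291 aligned bases, or 96.2%.

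Levels are given as the log2 signal of a probe minus the log2 75th percentile of its array, so that 0 is the 75th percentile and a difference of 1 is a 2-fold difference. All 10 member probes (C2 has 2) were well above background on all 12 arrays. Levels of different probes are not set against each other. The arrays had 75th percentiles of 4123 to 4697 in old restricted, 4646 to 4892 in old freely fed and 3993 to 4837 in young animals, with 22566 to 23200, 23373 to 24644 and 21659 to 22294 of 30367 probes well above background. Urothelium markers were above background on every array for 8 of 8 genes and smooth muscle markers for 5 of 6 tested, while 4 of 6 hepatocyte markers (Alb, Ambp, Apoh and Fgb) failed the background filter. Old freely fed replicate 2 stood apart from its group, at 51.9 on the first principal component against 7.27 to 13.7 for the other 3 animals. Changes of members and of most named genes are therefore given also without it, where its absence moved the value by over 1.5 times or changed a call. Single interferon-response genes are given as levels only. Restricted animals were on a slide and scan of their own, so restriction and slide cannot be told apart, and young and old freely fed animals were in different rows of 1 slide, so age and row cannot be told apart either. In whole tissue, fewer cells of a type and less RNA per cell cannot be told apart.

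Across the age comparison all 9 measured complement genes averaged higher in old freely fed than in young bladders, with log2 differences of 0.45 to 1.96 and a median of 0.52. Over all features 38.0% were above 0 and the median was -0.05. None of the 9 passed an adjusted p of 0.05 (limma, Benjamini-Hochberg over all features), where 3.72% of features did. At an unadjusted p under 0.05, 6 of 9 were higher, against 8.32% of features. In 3 genes, C1r, C1s and C3, the old freely fed and young groups did not overlap, against 5.69% of features with the old group higher.

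**Figure D1:**
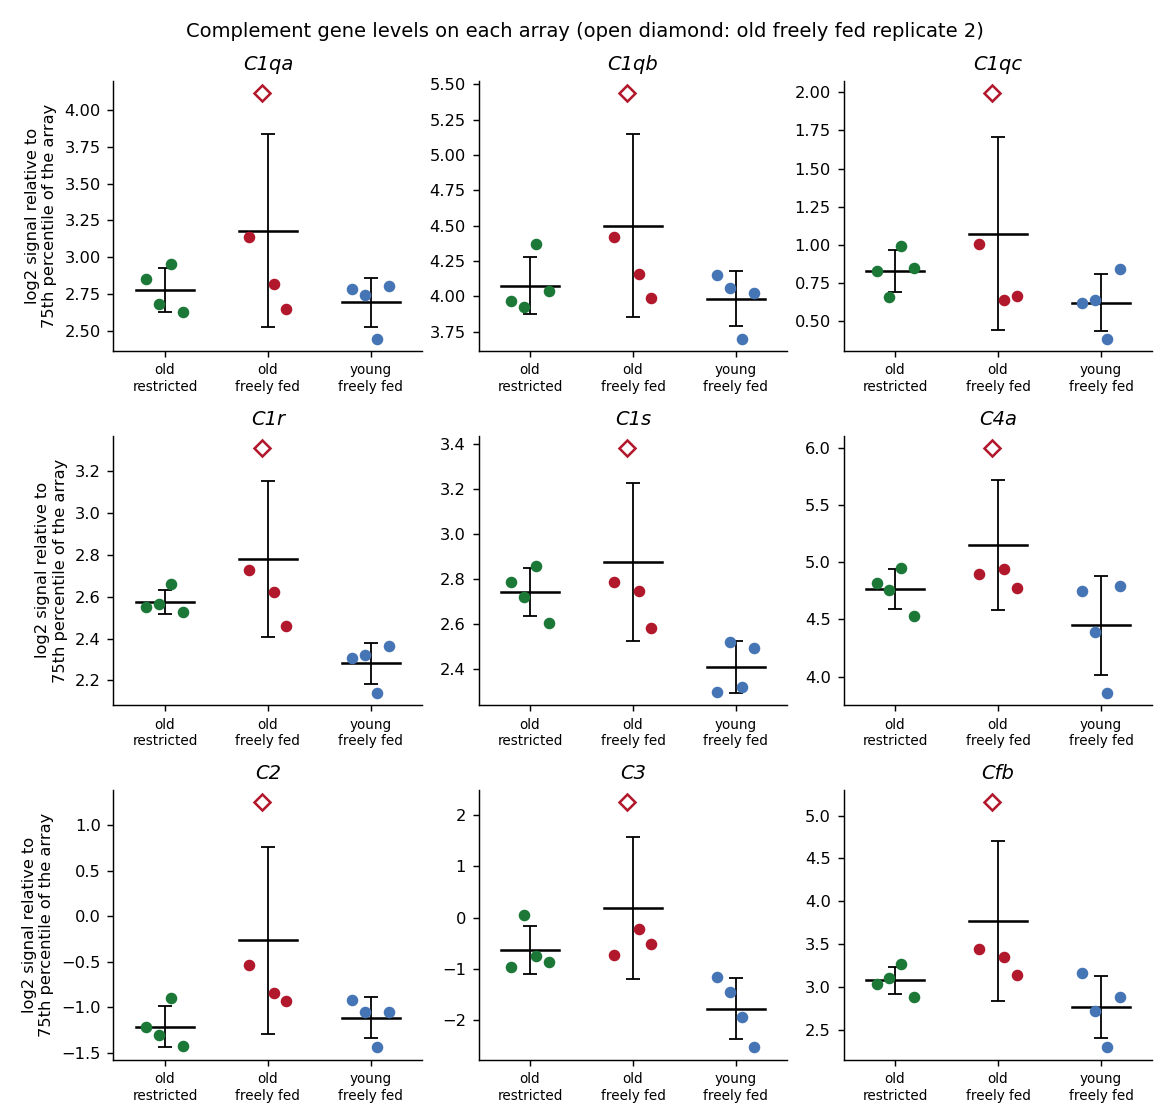
Level of each measured complement gene on each of the 12 arrays (log2 signal relative to the 75th percentile of the array; a separate scale for each gene), by group, with the group mean and SD (n = 4). The open diamond, old freely fed replicate 2, is the highest point of all 9 panels, and C1r, C1s and C3 are the panels in which all young animals lie below all old ones.

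C3, whose protein is the point where the complement routes meet, showed the widest difference with age. Its level was -0.72, 2.24, -0.22 and -0.52 in old freely fed replicates 1 to 4, against -1.16, -1.45, -1.93 and -2.53 in young replicates 1 to 4. Every old animal lay above every young animal, and replicate 2 lay 2.46 above the next old freely fed animal, a 5.51-fold gap. C3 averaged 0.20 ± 1.38 in old freely fed and -1.77 ± 0.60 in young rats (SD, n = 4 each), a 3.90-fold difference with a 95% interval of 1.66 to 9.17. The log2 difference was 1.96 (SE 0.56, limma adjusted p = 0.070), and the exact two-sided permutation test over the 8 animals gave p = 0.0286, the smallest it can give. Without replicate 2 the log2 difference was 1.28 (SE 0.32, limma adjusted p = 0.075), or 2.43-fold.

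In old restricted rats the C3 level was -0.97, 0.06, -0.74 and -0.87. The highest of these was replicate 2 of that group, and all 4 lay above the highest young animal. C3 thus averaged -0.63 ± 0.47 in old restricted rats, against 0.20 ± 1.38 in old freely fed rats (SD, n = 4 each), a log2 difference of -0.82 (SE 0.56, limma adjusted p = 0.434). With old freely fed replicate 2 left out, that difference was -0.14 (SE 0.32, limma adjusted p = 0.870). Set against the young group, restricted rats were 2.20-fold higher for C3 (log2 1.14, SE 0.56, 95% interval 0.94- to 5.18-fold, limma adjusted p = 0.225). When old freely fed replicate 2 was left out of the shared fit, the same 1.14 had an SE of 0.29 and a limma adjusted p of 0.035.

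The proteases C1r and C1s had small but narrow differences. C1r was 2.73, 3.31, 2.62 and 2.46 in old freely fed replicates 1 to 4, against 2.31, 2.32, 2.14 and 2.36 in young replicates 1 to 4. Groups did not overlap, and the lowest old freely fed animal was close to the highest young one. The log2 difference was 0.50 (SE 0.14, 1.41-fold, limma adjusted p = 0.068), and without replicate 2 it was 0.32 (SE 0.07, limma adjusted p = 0.054). Without old freely fed replicate 4 it was 0.61 with a limma adjusted p of 0.042.

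C1s, the protease that C1r activates, was at 2.79, 3.38, 2.75 and 2.58 in old freely fed replicates 1 to 4, against 2.30, 2.52, 2.32 and 2.49 in young replicates 1 to 4. Again every old freely fed animal was above every young one. The log2 difference was 0.47 (SE 0.14, 1.38-fold, limma adjusted p = 0.077), and 0.30 (SE 0.08, limma adjusted p = 0.087) without replicate 2.

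Old restricted animals had C1r levels of 2.55, 2.56, 2.66 and 2.53. Their C1s levels were 2.78, 2.72, 2.86 and 2.60. All 4 restricted animals were above all 4 young animals for both genes, and all overlapped the old freely fed animals. Against young rats, C1r was 1.22-fold higher in restricted rats (log2 0.29, SE 0.14, limma adjusted p = 0.216) and C1s was 1.26-fold higher (log2 0.33, SE 0.14, limma adjusted p = 0.156). Without old freely fed replicate 2 in the fit these 2 differences had limma adjusted p of 0.022 for C1r and 0.019 for C1s. Against old freely fed rats, restricted rats differed by -0.21 (SE 0.14) for C1r and by -0.13 (SE 0.14) for C1s, with limma adjusted p of 0.437 and 0.618. Without replicate 2 those differences were -0.03 and 0.03.

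The 3 C1q chains, which assemble into 1 protein, had differences of similar size, and their groups overlapped. C1qa was 3.14, 4.11, 2.82 and 2.65 in old freely fed replicates 1 to 4, against 2.78, 2.75, 2.45 and 2.80 in young replicates 1 to 4. C1qb was 4.42, 5.44, 4.16 and 3.99 in the old freely fed animals, against 4.15, 4.06, 3.70 and 4.02 in the young ones. C1qc was 1.002, 1.99, 0.63 and 0.66 in the old freely fed animals, against 0.62, 0.64, 0.38 and 0.84 in the young ones. Old freely fed replicate 2 was the highest and young replicate 3 the lowest of the 12 animals for all 3 chains. The log2 differences were 0.48 for C1qa (SE 0.25, limma adjusted p = 0.254), 0.52 for C1qb (SE 0.25, 0.236) and 0.45 for C1qc (SE 0.24, 0.274). Without replicate 2 they were 0.17, 0.20 and 0.15, each smaller than before.

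In old restricted rats C1qa ran from 2.63 to 2.95, C1qb from 3.93 to 4.37 and C1qc from 0.66 to 0.99. These ranges overlapped both other groups. Restricted animals differed from old freely fed ones by -0.40 (C1qa), -0.42 (C1qb) and -0.24 (C1qc), and from young ones by 0.08, 0.09 and 0.21, with limma adjusted p of 0.371 to 0.862. Leaving out old freely fed replicate 2 gave differences from old freely fed rats of -0.09 for C1qa, -0.11 for C1qb and 0.06 for C1qc, the last in the opposite direction.

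C4a, which C1s cleaves, was 4.90, 6.00, 4.94 and 4.78 in old freely fed replicates 1 to 4, against 4.75, 4.39, 3.86 and 4.79 in young replicates 1 to 4. The groups touched, since old replicate 4 was just below young replicate 4. C4a averaged 5.15 ± 0.57 in old freely fed and 4.45 ± 0.43 in young rats (SD, n = 4 each), a log2 difference of 0.71 (SE 0.26, limma adjusted p = 0.130), or 0.42 (SE 0.19) without replicate 2. Restricted rats had 4.82, 4.75, 4.95 and 4.53, which differed by -0.39 (SE 0.26, limma adjusted p = 0.430) from old freely fed rats and by 0.32 (SE 0.26, limma adjusted p = 0.481) from young rats. With old freely fed replicate 2 left out, the first of these was -0.11 (SE 0.19, limma adjusted p = 0.831).

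C2, the protease that joins the product of C4, had 2 probes. The brighter probe gave -0.54, 1.25, -0.84 and -0.93 in old freely fed replicates 1 to 4, against -0.92, -1.05, -1.44 and -1.05 in young replicates 1 to 4. Replicate 2 was 3.47-fold above the next old animal, and the other animals of the groups overlapped. The log2 difference was 0.85 (SE 0.39, limma adjusted p = 0.199), and 0.34 (SE 0.15, limma adjusted p = 0.245) without replicate 2. C2 was the member with the largest shift under restriction and the only one that averaged lower in restricted than in young rats. Restricted rats had -1.22, -1.30, -0.90 and -1.43, a log2 difference of -0.95 (SE 0.39, 1.93-fold lower, limma adjusted p = 0.195) from old freely fed rats. Without replicate 2 the difference was -0.44 (SE 0.15, limma adjusted p = 0.162), and from young rats it was -0.10 (SE 0.39). The second C2 probe gave 0.83 for age and -1.01 for restriction, and on it the restricted and old freely fed groups did not overlap.

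Cfb, which encodes factor B of the alternative pathway, was 3.44, 5.16, 3.35 and 3.14 in old freely fed replicates 1 to 4, against 3.17, 2.72, 2.29 and 2.88 in young replicates 1 to 4. Old replicate 2 was 3.28-fold above the next old animal, and the lowest old animal was just below the highest young one. The log2 difference was 1.004 (SE 0.36, 2.01-fold, 95% interval 1.16 to 3.48, limma adjusted p = 0.121), and 0.54 (SE 0.17, limma adjusted p = 0.135) without replicate 2. In old restricted rats Cfb was 3.04, 3.11, 3.27 and 2.89. That was 1.62-fold lower than in old freely fed rats (log2 -0.69, SE 0.36, limma adjusted p = 0.304) and 1.24-fold higher than in young rats (log2 0.31, SE 0.36, limma adjusted p = 0.628). The restriction difference without old freely fed replicate 2 was -0.23 (SE 0.17, limma adjusted p = 0.544).

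**Figure D2:**
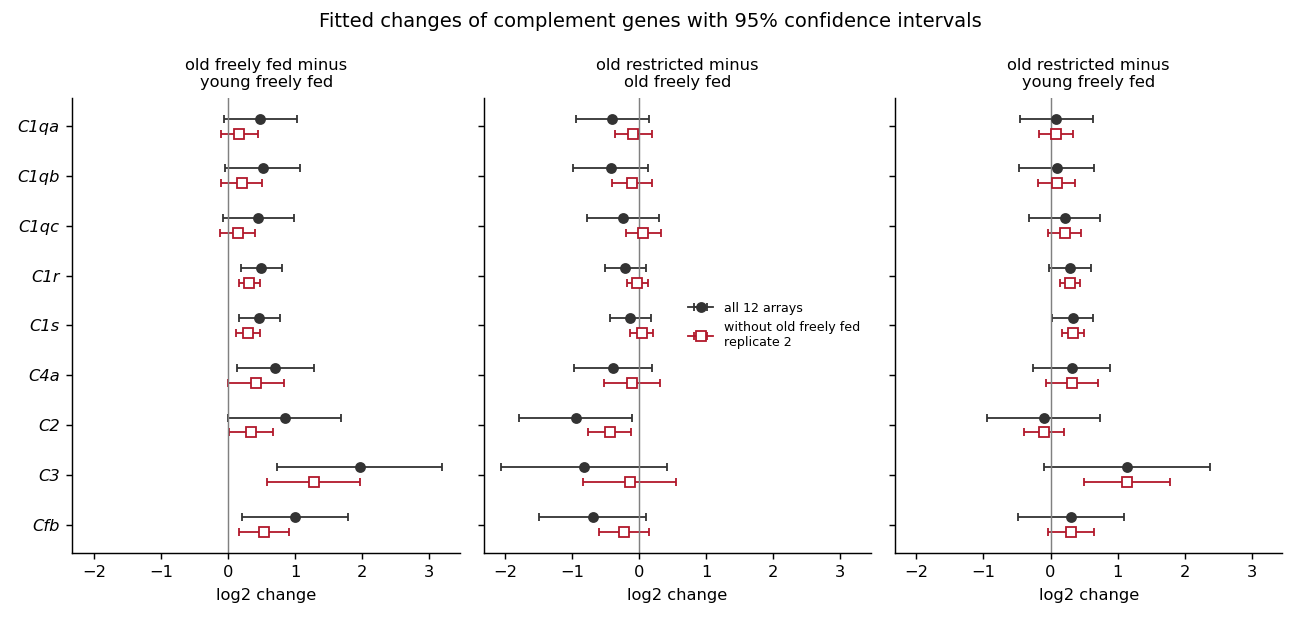
Fitted log2 change of each measured complement gene in the 3 comparisons, with 95% confidence intervals (limma), for all 12 arrays (filled circles) and without old freely fed replicate 2 (open squares). The age differences of all 9 genes lie above 0 in both fits, and the restriction differences move toward 0 when replicate 2 is left out, from a median of -0.40 to -0.11.

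For restriction, all 9 genes averaged lower in old restricted than in old freely fed rats, with log2 differences of -0.95 to -0.13 and a median of -0.40, where 42.6% of all features were below 0 and their median was 0.02. None passed, where 3.64% of features did, 1 (C2) had an unadjusted p under 0.05 with the restricted group lower, against 9.16% of features, and 0 had groups that did not overlap, against 6.05% of features with the restricted group lower. Without old freely fed replicate 2 the median was -0.11, 0 passed where 2.19% of features did, and C1qc and C1s averaged slightly higher in restricted rats. Set against young rats, restricted rats averaged higher for 8 of 9 genes, with a median of 0.29, where 47.2% of features were above 0. None passed, where 9.18% of features did, and 1 (C1s) had an unadjusted p under 0.05 with the restricted group higher, against 10.1%. C1r, C1s and C3 did not overlap, against 7.16% of features with the restricted group higher, and these same 3 genes passed once old freely fed replicate 2 was left out of the fit, where 3.71% of features were called higher.

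Leaving that animal out of the age comparison gave a median of 0.32 over the 9 genes, with 0 called, where 1.38% of features were called in either direction, and with C1r, C1s and C3 still not overlapping, against 6.88% of features. All comparisons that use old freely fed rats share those 4 animals, and the age and restriction values are therefore not independent. By rank, old freely fed replicate 2 was the highest of 12 animals for 9 of 9 genes and old freely fed replicate 1 was second for 6. Young replicate 3 was the lowest for 7. The summed level of the 9 genes was 6.08 to 6.42 in old restricted, 6.18 to 7.58 in old freely fed and 5.62 to 6.19 in young animals on the log2 scale. Bright probes weigh most in this sum, as in the summed levels of the lists below. The median level of the 9 genes was 2.60 to 2.86 in old restricted, 2.58 to 3.38 in old freely fed and 2.29 to 2.52 in young animals. For 8 genes the order of the group means was old freely fed, old restricted, young, and no neighbouring pair in that order passed the test.

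Of the other complement genes, 26 were tested: 7 of 10 activators on the array, 2 of 4 terminal pathway genes, 10 of 13 regulators and 7 of 9 receptors. Genes called higher with age numbered 2 of 26, against 1.63% of all features. With restriction 2 were called lower, against 2.02% of features. In restricted against young rats 1 was called lower, against 5.99% of features. No gene of these lists was called in the opposite directions.

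Fcnb, a ficolin that starts the lectin pathway on sugar patterns, was -2.68, -2.50, -3.49 and -3.04 in old freely fed replicates 1 to 4, against -3.90, -3.57, -3.87 and -3.64 in young replicates 1 to 4. All old animals were above all young ones. Fcnb rose by 0.82 with age on the log2 scale (SE 0.18, limma adjusted p = 0.036). In restricted rats it was -3.54, -3.79, -3.66 and -3.76, all below every old freely fed animal. It fell by 0.76 with restriction (SE 0.18, limma adjusted p = 0.041). Without old freely fed replicate 2, the Fcnb differences were 0.68 for age (limma adjusted p = 0.071) and -0.62 for restriction (limma adjusted p = 0.080), so neither was called. With 1 animal left out the limma adjusted p ran from 0.011 to 0.084 for age, missing the threshold without any 1 of the 4 young animals, old freely fed replicates 1 or 2, or old restricted replicate 2. For restriction it ran from 0.0095 to 0.110, passing when young replicate 1 or old freely fed replicate 3 was the animal left out.

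Itgb2 encodes the beta chain shared by the integrin receptors for cleaved C3 on leukocytes. It measured -2.28, -1.49, -2.89 and -2.83 in old freely fed replicates 1 to 4, against -3.59, -3.37, -3.30 and -3.25 in young replicates 1 to 4. The groups did not overlap, and Itgb2 rose by 1.005 on the log2 scale (SE 0.24, 2.01-fold, limma adjusted p = 0.046), or by 0.71 without replicate 2 (SE 0.14, limma adjusted p = 0.040). With 1 animal left out its limma adjusted p ran from 0.038 to 0.102, and it passed only without old freely fed replicate 2, 3 or 4. Restricted rats had -3.19, -3.31, -3.04 and -3.29, a difference of -0.84 (SE 0.24, limma adjusted p = 0.084) from old freely fed rats, or -0.55 (limma adjusted p = 0.079) without replicate 2.

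Cd93, a membrane protein of endothelial and myeloid cells first described as a C1q receptor, followed another pattern. It was 1.11, 0.98, 0.95 and 0.84 in old restricted replicates 1 to 4, against 1.30, 1.71, 1.46 and 1.51 in old freely fed replicates 1 to 4. Young rats had 1.39, 1.46, 1.29 and 1.26. All restricted animals were below all animals of both other groups. Cd93 fell by 0.52 with restriction (SE 0.08, limma adjusted p = 0.009) and was lower in restricted than in young rats by a log2 difference of -0.38 (SE 0.08, limma adjusted p = 0.021). With 1 animal left out the limma adjusted p for restriction ran from 0.0083 to 0.031. Against young rats it ran from 0.010 to 0.059, missing the threshold without young replicate 1 or 2 or old restricted replicate 2 or 3. With age Cd93 differed by 0.15 (SE 0.08, limma adjusted p = 0.313). Leaving out old freely fed replicate 2 gave 0.07 for age and -0.45 for restriction. Beside it, 5 of 5 endothelium markers were tested and all were above background on 12 arrays. Their summed level was 2.10 to 2.31 in old restricted, 2.38 to 2.59 in old freely fed and 2.23 to 2.45 in young rats, so the restricted rats lay below all old freely fed rats and overlapped the young ones. Of these markers 1 of 5 was called lower with restriction by limma, against 2.02% of features. Without old freely fed replicate 2 it was 0 of 5, where 2.19% of features were called in either direction. In restricted against young rats 1 of 5 was called lower in both fits, against 5.99% of features with all 12 arrays. The part of endothelial cells in the Cd93 values was not tested.

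The other named genes did not pass. C6, the first of the measured membrane attack genes, differed by 1.09 with age (SE 0.37, limma adjusted p = 0.107) and by -0.98 with restriction (SE 0.37, limma adjusted p = 0.172). Replicate 2 of the old freely fed rats measured 0.14 and its 3 companions -1.72 to -1.33, against -2.57 to -1.60 in young rats. Restricted rats, at -2.57 to -1.72, lay narrowly below all old freely fed rats. Without replicate 2 the C6 differences were 0.66 for age (limma adjusted p = 0.178) and -0.55 for restriction (limma adjusted p = 0.285). C9, the pore-forming component, was not well above background on every array, and its direction with age and with restriction changed with quantile scaling.

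Cfd encodes factor D, which cleaves factor B and is made largely by fat cells. It was 3.71, 4.92, 3.33 and 3.36 in old freely fed rats, against 3.27, 3.26, 2.75 and 3.17 in young rats. Restricted rats had 3.13, 2.90, 2.89 and 3.07, so old freely fed rats lay above both other groups without overlap. The log2 difference was 0.72 for age (SE 0.29, limma adjusted p = 0.151) and -0.83 for restriction (SE 0.29, limma adjusted p = 0.134). Without old freely fed replicate 2 these were 0.35 (limma adjusted p = 0.195) and -0.47 (limma adjusted p = 0.105), and the groups still did not overlap. Beside it, 2 of 3 adipocyte markers were tested, Adipoq at -3.22 and Cidec at -2.29 with restriction, with Lep below the background filter. Of these 2, 1 was above background on all 12 arrays. By limma 0 of 2 were called lower with restriction, against 2.02% of features. The summed adipocyte level was -6.13 to -0.69 in old restricted, -0.40 to 0.25 in old freely fed and -1.99 to -0.52 in young animals. The part of fat tissue in the Cfd values was not tested.

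Among regulators, clusterin (Clu), which binds terminal complexes, measured 3.48 in replicate 2 of the old freely fed rats, whose 3 companions had 2.76 to 2.85, against 2.31 to 2.67 in young rats. The Clu difference with age was 0.43 (SE 0.14, limma adjusted p = 0.102), and 0.26 without replicate 2. With restriction the Clu difference ran from -0.42 to -0.18 when 1 animal was left out. Cd59b, of the family of membrane proteins that block the terminal pore, differed by -0.20 with age (SE 0.07, limma adjusted p = 0.103). Cd55, which speeds the decay of C3-cleaving enzymes, differed by -0.30 with restriction (SE 0.12, limma adjusted p = 0.196), and all restricted animals were below all old freely fed ones. Cr1l, a membrane regulator of C3 in rodents, stayed between 1.24 and 1.44 on all 12 arrays. Masp1, a lectin pathway protease, differed by -0.03 with age and by -0.07 when old freely fed replicate 2 was left out. Colec12, a scavenger collectin, differed by less than 0.1 with age, in a direction that changed with quantile scaling.

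Neither C3ar1 nor C5ar1, receptors for small fragments of C3 and C5, passed the test with all 12 arrays. C3ar1, the receptor of C3a, differed by 0.53 with age (SE 0.26, limma adjusted p = 0.234) and by -0.70 with restriction (SE 0.26, limma adjusted p = 0.165). When old freely fed replicate 2 was left out these were 0.23 (limma adjusted p = 0.478) and -0.39 (limma adjusted p = 0.251). C5ar1, the receptor of C5a, was -2.09, -2.09, -1.54 and -1.69 in old restricted rats, against -1.12, -1.05, -1.60 and -1.43 in old freely fed rats. It differed by -0.55 (SE 0.15, limma adjusted p = 0.064) from old freely fed and by -0.46 (SE 0.15, limma adjusted p = 0.073) from young rats. The restriction difference of C5ar1 passed without old freely fed replicate 3 (-0.65, limma adjusted p = 0.048) and without old restricted replicate 3 (-0.66, limma adjusted p = 0.046). Restricted animals were all below all young animals for C5ar1, whose young levels were -1.49 to -1.23.

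**Figure D3:**
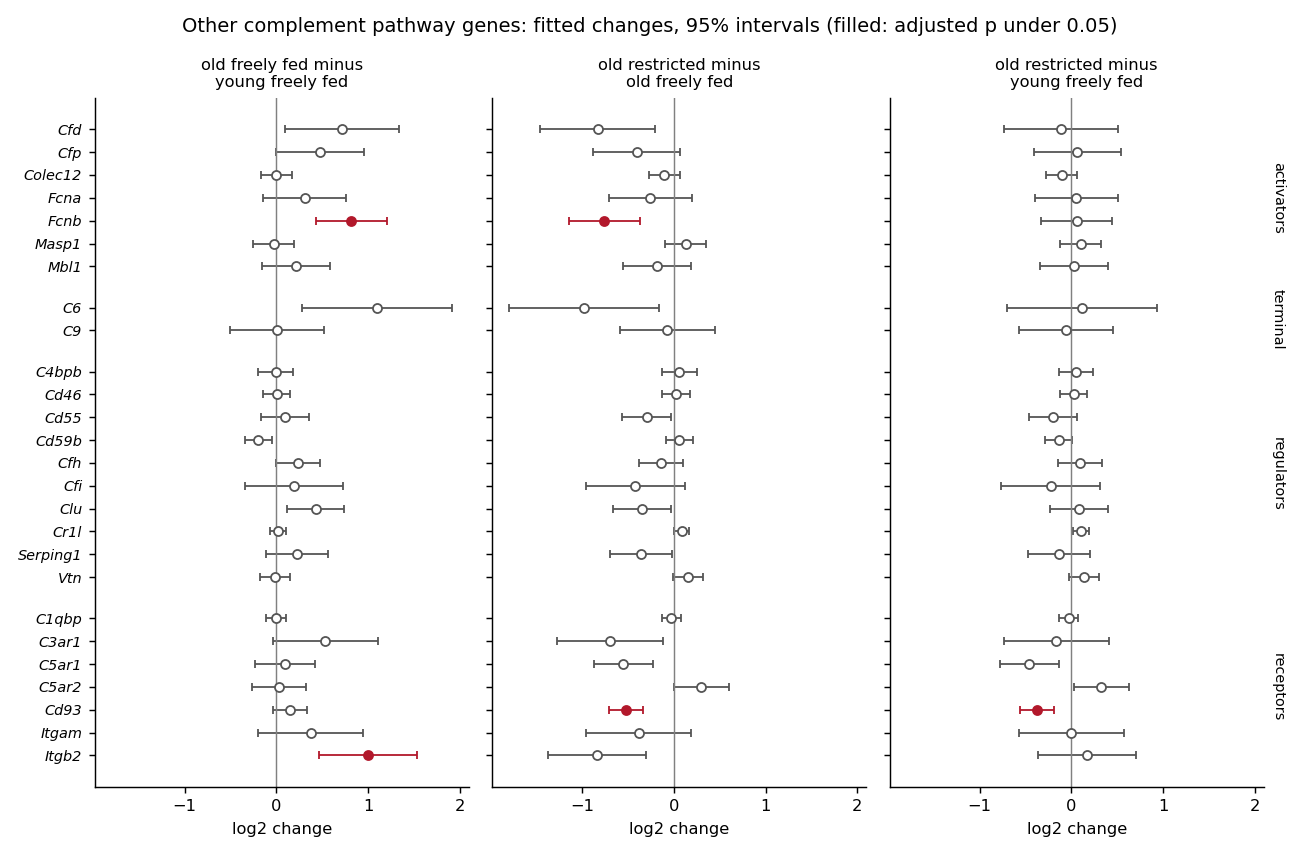
Fitted log2 change of the 26 other complement genes tested, with 95% confidence intervals (limma, all 12 arrays), grouped as activators, terminal pathway, regulators and receptors. Filled points mark an adjusted p under 0.05: Fcnb and Itgb2 with age, Fcnb and Cd93 with restriction, and Cd93 in restricted against young rats.

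Some lists of other genes moved with the same animal, and others, such as the T cell markers below, did not. The 16 interferon-response genes had a median change of 0.90 with age and 0.33 without old freely fed replicate 2. By limma 0 of 16 were called in either fit. Of all features, 3.72% were called for age in either direction, and 1.38% without that animal. At an unadjusted p under 0.05, 4 of the 16 genes were higher with age, against 8.32% of features. Without that animal 3 of the 16 genes were higher at an unadjusted p under 0.05, and no share of all features was computed for that fit. In 7 of the 16 genes all old freely fed animals lay above all young ones, against 5.69% of features. Without that animal it was also 7 of 16, against 6.88% of features. All 16 interferon-response genes averaged higher with age in both fits. Their summed level was 4.98 to 6.13 in old restricted, 5.10 to 7.53 in old freely fed and 4.90 to 5.08 in young animals, and the value of 7.53 was that of replicate 2, the other 3 being 5.10 to 5.20. Gbp2, an interferon-induced GTPase, was 3.65 in replicate 2 and 1.53 to 1.97 in the other 3, against 1.13 to 1.17 in young rats. Psmb9, a subunit of the immunoproteasome, was 2.76 in replicate 2 and 1.54 to 1.79 in the other 3, against 1.13 to 1.28 in young rats. The part of an interferon response in the complement values was not tested.

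Macrophage markers were tested for 9 of 10 genes, with Marco below the background filter, and all 9 were above background on all 12 arrays. Their summed level was 4.47 to 4.89 in old restricted, 4.87 to 5.76 in old freely fed and 4.45 to 4.68 in young animals, and 5.76 was replicate 2. Their median change with age was 0.42, and 0.27 without that animal. At an unadjusted p under 0.05, 5 of 9 were higher with age in both fits, against 8.32% of features with all 12 arrays. Called higher with age were 0 of 9, and 1 without replicate 2, where 3.72% and 1.38% of features were called in either direction. Called lower with restriction were also 0 and 1, where 3.64% and 2.19% of features were called. For T cell markers, tested for 7 of 7 genes, old freely fed replicate 2 did not stand highest in the summed level. It was the lowest of the old freely fed rats, at 0.75 against 0.83 to 0.95. The median T cell gene was at -4.92 to -4.21 in these rats, so the sum rests mostly on the brightest genes. The T cell list was at 0.34 to 0.63 in old restricted and at -0.02 to 0.37 in young rats. With age 4 of 7 T cell genes were called higher by limma, against 1.63% of all features. Without replicate 2 the count was 5 of 7, where 1.38% of features were called in either direction. Neutrophil markers were tested for 3 of 4 genes with Elane below the filter, and 2 of these 3 were above background on all 12 arrays. In summed level these markers were highest in replicate 2, at -1.68 against -3.40 to -2.70 in the other old freely fed rats. They were at -4.56 to -3.74 in old restricted and at -4.55 to -2.87 in young rats. Fibroblast markers, tested for 6 of 6 genes, were at 7.12 to 7.22 in old restricted, 6.71 to 7.26 in old freely fed and 6.94 to 7.54 in young rats. Smooth muscle markers, tested for 6 of 6 genes, were at 7.74 to 7.98 in old restricted, 7.28 to 8.02 in old freely fed and 8.12 to 8.20 in young rats. Hepatocyte markers were tested for 2 of 6, with a summed level of -0.56 to -0.08 in old restricted, -1.06 to -0.29 in old freely fed and -1.07 to -0.64 in young rats. The part of these cells in the complement values was not tested.

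**Figure D4:**
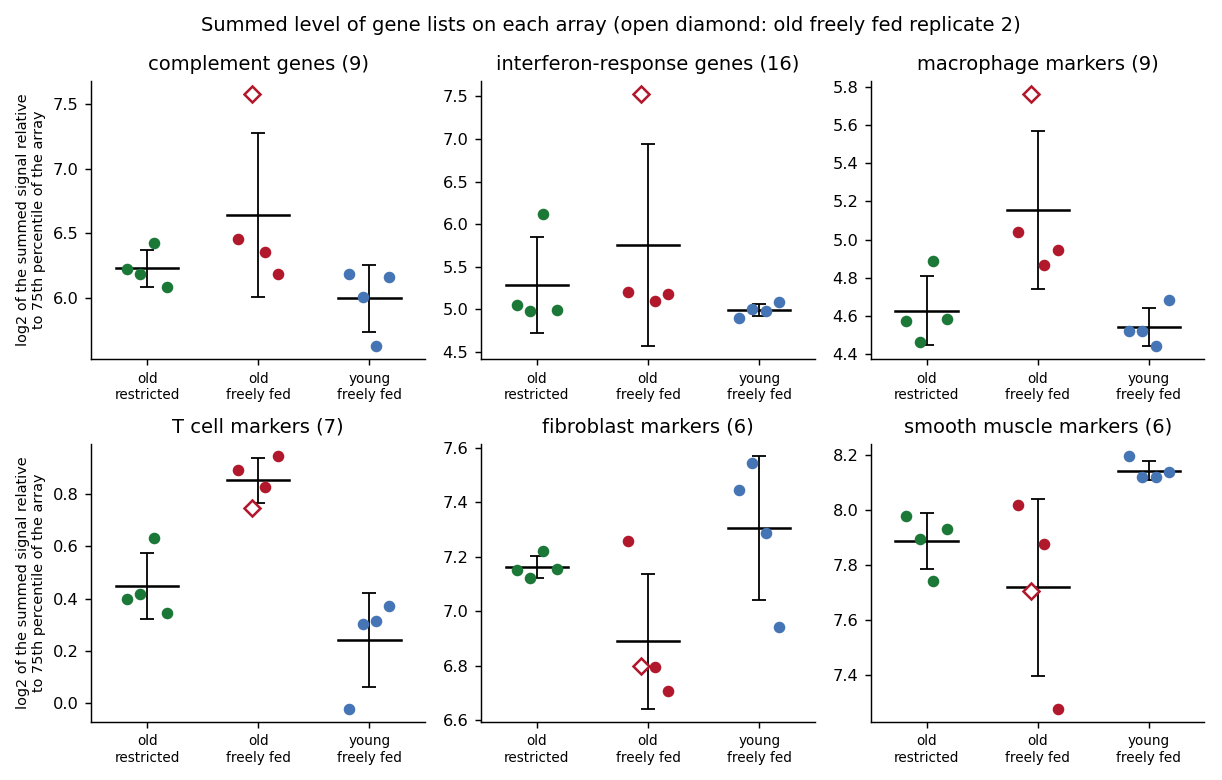
Summed level of each gene list on each of the 12 arrays (log2 of the summed signal relative to the 75th percentile of the array; a separate scale for each list), with the group mean and SD (n = 4). Old freely fed replicate 2 (open diamond) is the highest animal for the complement genes, the interferon-response genes and the macrophage markers, and the lowest of its group for T cell markers.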

How the data were processed

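Cy3-labelled RNA was hybridised to 1-colour arrays, by the protocols in the labels. Spot intensities were deposited, made with Agilent Feature Extraction 10.7, per the submitters' processing notes, background-subtracted but not scaled between arrays (design 028279, genome rn4, per the file headers). The deposited value table equalled the processed intensity at 100% of spots (relative tolerance 1e-06), and its column medians were 473 to 593.

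The log2 processed signal minus each array's log2 75th percentile was used. Replicate spots of a probe were averaged, with flagged outliers left out. A probe was kept if some group had it well above background on each of its 4 arrays (23089 of 30367 probes), and the brightest probe stood for a gene, giving 20425 features. RefSeq accessions named 17998 probes (59.3%). Models were fitted to all 12 arrays with R 4.3.3 and limma 3.58.1 (eBayes with a brightness trend, residual degrees of freedom 9, prior 2.72), two-sided. P-values were adjusted by Benjamini-Hochberg over all features, with a threshold of 0.05. The script was tested on simulated data. The number of arrays limits the precision.

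The members and lists were chosen with earlier results of these data known. Named genes were all members and, in each other complement list and an interferon list, genes called in any comparison and the 2 with the smallest adjusted p in each. Replicate numbers are those of the source names, since titles carry other numbers. Same-numbered animals correlated at -0.19 to 0.10 in their deviations, with 0 of 12 pairs over 0.1. That gave no sign of pairing by number but cannot exclude it, and same-numbered animals shared an array column. The main fit took the animals as unpaired. Alternatives changed the scaling, the background correction (normexp, offset 50), the filter, the probe rule, the model and the animals. Normexp used the median spot and background signals, since the mean spot signal was not among the columns.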

Additional observations from a re-analysis of the deposited data

Results flagged for a closer look

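Some single animals lay far from the other 3 of their group by Dixon's ratio, the gap to the nearest animal divided by the range of the group. Of 84 sets of 4 levels, each of 1 probe in 1 group, 8 passed the 95% critical value. For a single set chance alone flags about 1 in 20. The sets share the same animals and are not independent, so that rate is no yardstick for the 8. Old freely fed replicate 2 was the animal in 6 of the 8, on the high side in each. It had a level of 2.24 for C3, 6.00 for C4a, 5.16 for Cfb, 3.48 for Clu, 1.08 for Oas1a, an interferon-induced synthetase, and 1.64 for Psmb8, a subunit of the immunoproteasome. Old restricted replicate 3 was high for C3ar1 at -4.83, the other 3 restricted animals being -5.37 to -5.34. Young replicate 3 was low for C1qa at 2.45, the other 3 young animals being 2.75 to 2.80.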

How the results depend on the processing

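Members kept their side of the threshold in most refits. For age, all but 3 of 108 member values under other settings and all but 1 of 108 with 1 animal left out did so. Without the filter on dim probes C1r (limma adjusted p = 0.040), C1s (0.049) and C3 (0.042) passed, 3 in all against 0, with unchanged log2 differences. In that run 3568 features were called for age, 2877 of them lower and 691 higher. With the filter 760 of 20425 features (3.72%) were called, 332 of them higher. The run without the filter tested more features, so these counts are not of the same set. Negative controls averaged -10.5 to -9.97 in old freely fed and -9.18 to -8.94 in young arrays, on the log2 scale of the levels. Without old freely fed replicate 4 C1r passed (0.042). For restriction 0 members passed under any alternative run. In restricted against young rats 2, C1r (limma adjusted p = 0.021) and C1s (0.028), passed when only the 2 groups compared were fitted. Over the other settings 1338 to 3259 of all features tested were called in that comparison. With 1 animal left out, called members numbered 0 to 1 for age and 0 to 3 for restricted against young rats. The 3 came without old freely fed replicate 2, where 3.71% of features were called higher. In these runs 121 to 927 of 20425 features were called for age and 737 to 2089 for restricted against young rats. The counts of lists and of groups that do not overlap without that animal were added after seeing the data. Member medians ran from 0.32 to 0.69 for age, from -0.58 to -0.11 for restriction and from 0.13 to 0.32 for restricted against young rats.

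Counts of all features called were 760 for age, 744 for restriction and 1874 for restricted against young rats. For age they were 411 with normexp and quantile scaling, 440 without the brightness trend, 94 with only the 2 groups compared and 3568 without the filter on dim probes. For restriction they were 478 with only the 2 groups, and for restricted against young rats 3259 without the filter. Leaving out 1 animal gave 121 to 927, 268 to 848 and 737 to 2089. Of the other complement genes, 2 were called for age, against 1 with either normexp setting, without the trend or with robust moderation and 0 with only the 2 groups compared. With 1 animal left out these counts were 0 to 2 for age, 1 to 3 for restriction and 0 to 1 for restricted against young rats. Fcnb with age and with restriction and Itgb2 with age lost their calls in several of these refits, with limma adjusted p up to 0.112, while Cd93 with restriction kept its call in every refit run. With restriction C5ar1 passed under normexp (-0.53, limma adjusted p = 0.046) and under normexp with quantile scaling (-0.54, 0.038), and Cd55 passed with only the 2 groups compared (-0.30, 0.034). With the replicate block, 498 features and 1 other complement gene were called for age and 1 other complement gene for restriction, and 0 members in each comparison. Whether the numbers pair animals could not be settled.

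Some small changes turned direction, and none of these was called. C9 with age was -0.055 with quantile scaling and -0.12 with normexp, C9 with restriction was 0.029 and 0.12, and C9 in restricted against young rats was 0.0022 with normexp. Colec12 with age was 0.034 with quantile scaling, 0.0025 with median centring and 0.014 with normexp and quantile scaling. With 1 animal left out, the ranges that crossed 0 were -0.0063 to 0.15 for C1qb, -0.017 to 0.33 for C6 and -0.25 to 0.099 for C9 in restricted against young rats. For restriction they were -0.39 to 0.064 for C1qc, -0.23 to 0.035 for C1s and -0.22 to 0.033 for C9. For age they were -0.18 to 0.17 for C9, -0.025 to 0.21 for Cd55, -0.078 to 0.071 for Colec12, -0.0061 to 0.042 for Cr1l and -0.098 to 0.045 for Masp1. Except where leaving out an animal or changing the features tested is itself the change, the cause was not tested. Signal over background limits C9 and the genes that failed the filter on dim probes.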
